A study of Mus musculus with 20 samples.

Results

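The 46 genes described here encode peroxins, which build the peroxisome, and enzymes and membrane proteins that work in it. They were chosen by name from a list of peroxisomal genes, with earlier results of these data known, including the fall of the member Nudt19. All 46 of 46 were found among the 19940 genes of the deposited table and passed the filter on low values that left 14630 genes for testing. Transcripts were measured in whole kidneys of male mice by 3′ RNA sequencing (QuantSeq, which reads the 3′ end of polyadenylated RNA), with 1 library per mouse and 5 mice in each of 4 groups. The groups were G3 Tert-/- mice at 47 weeks of age, Tert+/+ mice at 47 weeks, G3 Tert-/- mice at 7 weeks and Tert+/+ mice at 7 weeks. The older mice are called old and the younger ones young. Tert encodes the catalytic subunit of telomerase, and G3 marks generation 3 without it. The series concerns short telomeres and kidney fibrosis, and the comparisons ask how the same organelle's transcripts differed by genotype at each age and by age in each genotype.

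Peroxisomes are small organelles bounded by a single membrane. They shorten very long-chain, branched and dicarboxylic fatty acids by beta-oxidation, make the first intermediates of ether lipids, oxidise 2-hydroxy acids and D-amino acids, and break down the hydrogen peroxide that their oxidases produce. Proximal tubule cells of the kidney are rich in them, and the nuclear receptor PPAR-alpha drives many of their fatty acid enzymes in rodents. Most matrix enzymes are made in the cytosol and imported in folded form by the peroxins.

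Values are normalized read counts, which are whole reads divided by 1 size factor per library, and totals were 7161690 to 9757594 reads per library. Log2 fold changes are on the log2(normalized count + 1) scale with their standard errors (SE), and adjusted p-values are from limma with Benjamini-Hochberg adjustment over all 14630 genes, with 0.05 as the threshold. The proximal tubule markers Slc34a1 (19405 to 41220 counts) and Lrp2 (4890 to 8233) were high in all 20 libraries, as the kidney label requires. Tert itself was counted at 5.11 to 8.31 in G3 Tert-/- old, 7.25 to 16.9 in Tert+/+ old, 0.979 to 5.65 in G3 Tert-/- young and 4.21 to 15.7 in Tert+/+ young kidneys, and whether these 3′ reads lie inside the deleted part of the gene was not tested. Nothing in the labels says that mice of a group came from separate litters, so p-values measure the spread between these mice.

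With all libraries, Hao2 passed the test of age in both genotypes, Ehhadh in Tert+/+ only, and Phyh and Pex14 in G3 Tert-/- only. Promoter sequences are given for these 4 of the members that passed. They are the bases upstream of the RefSeq start on GRCm38.p6, all in lower case apart from matches on either strand to the nuclear receptor site AGGTCA, the box CCAAT, the GC box GGGCGG and the TATA element TATAAA, which are in capitals. Hao2 lies on the minus strand (chr3:98893240-98893480), as do Ehhadh (chr16:21787835-21788084) and Pex14 (chr4:149099877-149100093), and Phyh lies on the plus strand (chr2:4918746-4918995). The Hao2 and Pex14 windows end where the first exon of the GENCODE M21 model begins.
Hao2: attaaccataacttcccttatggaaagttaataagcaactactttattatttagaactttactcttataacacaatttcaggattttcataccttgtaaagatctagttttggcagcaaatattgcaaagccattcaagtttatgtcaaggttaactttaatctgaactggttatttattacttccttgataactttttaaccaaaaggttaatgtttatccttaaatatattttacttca
Ehhadh: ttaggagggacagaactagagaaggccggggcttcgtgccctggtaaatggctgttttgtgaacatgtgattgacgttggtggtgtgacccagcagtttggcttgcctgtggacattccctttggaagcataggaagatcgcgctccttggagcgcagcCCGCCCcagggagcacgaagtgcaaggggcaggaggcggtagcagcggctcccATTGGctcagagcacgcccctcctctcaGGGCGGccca
Phyh: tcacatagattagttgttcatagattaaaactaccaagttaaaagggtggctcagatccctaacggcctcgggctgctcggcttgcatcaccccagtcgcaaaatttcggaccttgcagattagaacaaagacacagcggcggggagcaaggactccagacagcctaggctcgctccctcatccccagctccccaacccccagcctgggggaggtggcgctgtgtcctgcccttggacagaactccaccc
Pex14: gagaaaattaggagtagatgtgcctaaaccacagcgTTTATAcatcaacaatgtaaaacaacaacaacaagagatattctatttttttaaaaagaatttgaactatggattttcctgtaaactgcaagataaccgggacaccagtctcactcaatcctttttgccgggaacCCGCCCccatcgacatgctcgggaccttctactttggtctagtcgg
Hao2 and Phyh held none of these letters, Ehhadh held CCAAT and GGGCGG, and Pex14 held GGGCGG and TATAAA. Over the 46 promoter entries of the 38 members that RefSeq's table holds, each taken as the 250 bases upstream, GGGCGG was in 63% (55.4% of promoters of all tested genes), CCAAT in 43.5% (34.7%), AGGTCA in 15.2% (11.1%) and TATAAA in 8.7% (6.84%). A direct repeat of AGGNCA with 1 base between the copies, the form of element that PPAR-alpha binds with its partner RXR, was in 0 of the 46 and in 0.24% of promoters of all tested genes. A match says only that the letters are present in that window, and its absence says nothing of sites elsewhere.

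A pair of Tert+/+ libraries stood apart and touch many members. On the first principal component of all tested genes, Tert+/+ old replicate 4 scored 56.6 and Tert+/+ young replicate 1 scored 67.5, while the other 18 libraries ran between -39.4 and 21.01. Both lay below all of the other 18 for 7 members (15.2%, against 7.85% of all tested genes), which were Decr2, Amacr, Pex5, Idh1, Pex13, Hacl1 and Pex19. Both lay above all of the other 18 for 5 members (10.9%, against 5.3%), which were Pex3, Acaa1a, Dao, Slc27a2 and Acaa1b. Amacr, the racemase that prepares branched-chain and bile acid intermediates for beta-oxidation, shows the size of the shift: it was 299, 263, 351, 42.8 and 310.5 in Tert+/+ old replicates 1 to 5 and 69.9, 138, 441, 287 and 381 in Tert+/+ young replicates 1 to 5. Within their groups the SD over members of the log2 departure from the median of the group's other 4 libraries was 0.827 in Tert+/+ old replicate 4 and 0.789 in Tert+/+ young replicate 1, and between 0.185 and 0.470 in the other 18. Over all tested genes that SD was 0.6645 in Tert+/+ old replicate 4 and 0.722 in Tert+/+ young replicate 1. It was between 0.3378 and 0.5443 in the other 18. Calls on members are therefore given with and without this pair, and so are many log2 changes of members that a result turns on. Results on lists of other genes are given with all 20 libraries only.

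**Figure D1:**
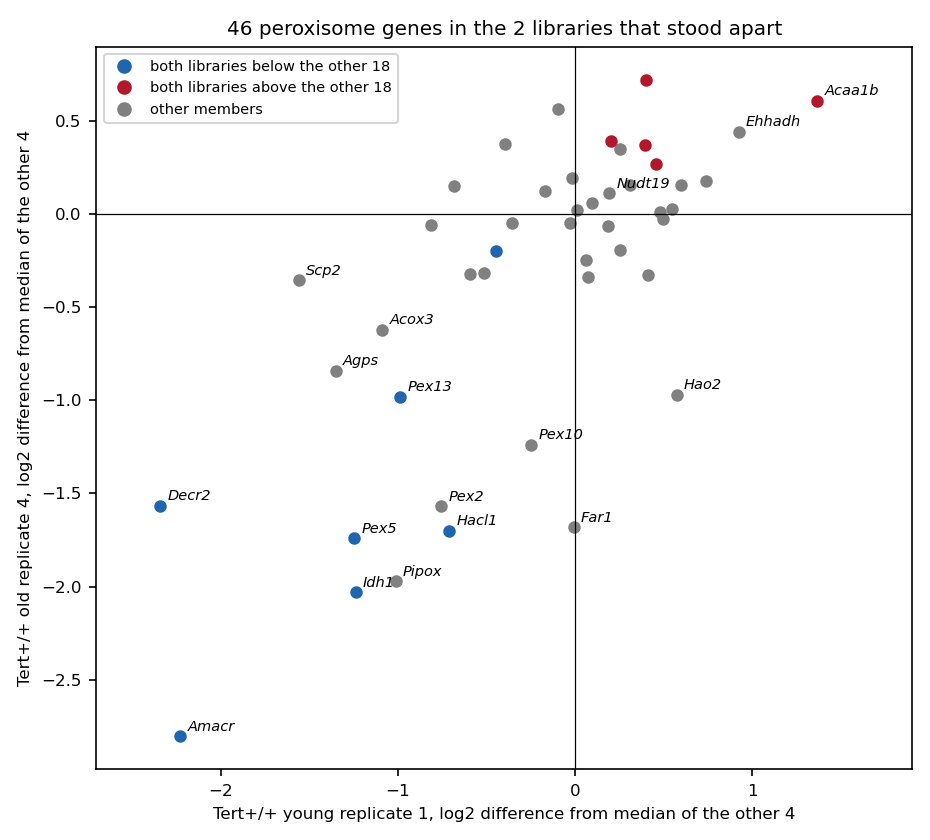
Log2 difference of each of the 46 members from the median of the other 4 libraries of the group, for Tert+/+ young replicate 1 (horizontal axis) and Tert+/+ old replicate 4 (vertical axis). Each point is 1 gene, blue where both libraries lay below the other 18 (7 genes) and red where both lay above them (5 genes), and Amacr and Decr2 lie far down on both axes.

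In old kidneys, Nudt19 was the member that differed by genotype, a fall that was known when the members were chosen. At 47 weeks 1 of 46 members fell in G3 Tert-/- and none rose, against a background of 0.0957% of all tested genes called in either direction (0.082% fell and 0.0137% rose), and 29 of 46 (63%) had a negative fold change, against 47.9% of all tested genes. The median log2 fold change of the members was -0.09 and that of all tested genes was 0.01. At an unadjusted p under 0.05, 7 members were lower and 1 was higher (6.58% of all tested genes in either direction). By role, 10 of 12 genes of beta-oxidation (median -0.14) and 4 of 5 nudix hydrolases and acyl-CoA thioesterases (median -0.27) were lower by sign, and so were 6 of 13 peroxins (median 0.00). Without the libraries that stood apart 33 of 46 members had a negative sign (median -0.14), among them 10 of 12 genes of beta-oxidation (median -0.22) and 8 of 13 peroxins (median -0.04). Leaving out G3 Tert-/- old replicate 1 gave a median of -0.15 over the members, and leaving out G3 Tert-/- old replicate 3 gave -0.06. Groups did not overlap for 2 members, Nudt19 and Slc27a2, both lower in G3 Tert-/- (2.31% of all tested genes did not overlap). How many of all tested genes overlapped only through Tert+/+ old replicate 4 was not counted. Among the members Agps, Decr2 and Nudt12 did. Without the libraries that stood apart their log2 changes were -0.69, -0.26 and -0.38, and none passed (adjusted p = 0.13, 0.624 and 0.593 by limma).

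Nudt19 (chromosome 7, 35547185 to 35556304) encodes a peroxisomal hydrolase that cleaves coenzyme A and is abundant in mouse kidney. It was 2263, 1723, 2008, 2081 and 2480.4 in the G3 Tert-/- old libraries, against 3333, 3809.8, 3551, 3717 and 3244 in the Tert+/+ old libraries. All 5 old G3 Tert-/- kidneys lay below all 5 old Tert+/+ kidneys, and below all 10 young ones. The means were 2111 ± 283 in G3 Tert-/- and 3531 ± 242 in Tert+/+ old kidneys (SD, n = 5 each), 1.68-fold lower in G3 Tert-/- (log2 change -0.75 with an SE of 0.13, adjusted p = 0.0125 by limma, and an exact two-sided permutation test gave p = 0.00794, the smallest that 5 against 5 mice allow). This fall was known before the tests were chosen, so these p-values describe it and are no independent support for it. In young kidneys Nudt19 was 4883, 3941, 3832, 5258 and 3490.0 in G3 Tert-/-, against 5161, 4070.1, 4223, 5911 and 4826 in Tert+/+. These overlapped, and the log2 change was -0.18 with an SE of 0.13, adjusted p = 0.571 by limma (exact permutation p = 0.238). Without the libraries that stood apart the log2 change in old kidneys was -0.73 (adjusted p = 0.0189, background 0.103%), and the call ended when either of 2 old G3 Tert-/- libraries was left out (adjusted p = 0.0593 without replicate 2 and 0.0546 without replicate 4).

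Slc27a2, which activates very long-chain fatty acids and carries them across membranes, was 7102, 7577, 7048, 7064 and 8169.8 in G3 Tert-/- old kidneys, against 9441, 9576, 8631, 11363 and 9433 in Tert+/+ old kidneys. Every old G3 Tert-/- value was lower, but the test over all genes was not passed (log2 change -0.39 with an SE of 0.13, adjusted p = 0.534 by limma). Eci2, an isomerase for unsaturated fatty acids, had a log2 change of -0.37 (adjusted p = 0.534), and Hao2 had 0.47 (adjusted p = 0.6). Tert+/+ old replicate 4 held the lowest Hao2 value of its group, and without the libraries that stood apart the Hao2 log2 change was 0.28.

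**Figure D2:**
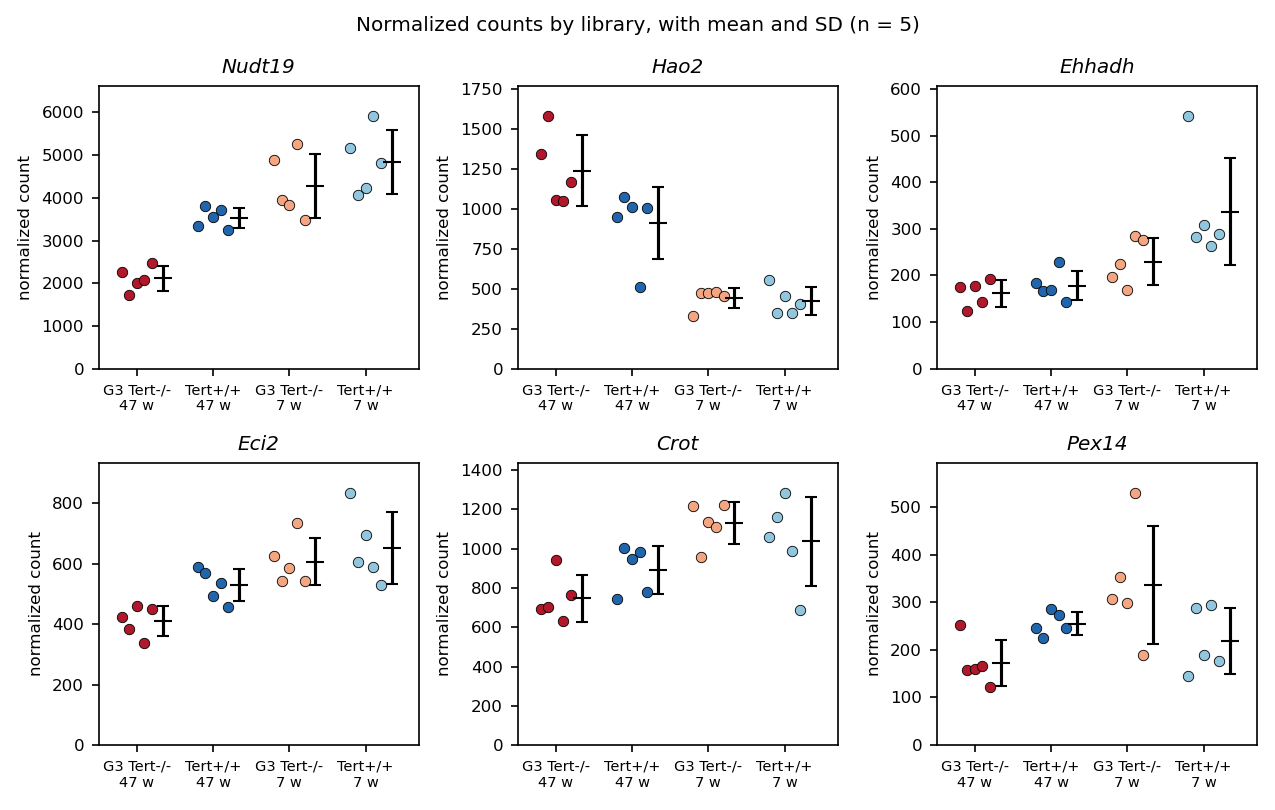
Normalized counts of Nudt19, Hao2, Ehhadh, Eci2, Crot and Pex14 in each library, with 47-week (47 w) groups left of 7-week (7 w) groups. Each point is 1 mouse and the bars are the mean and SD of 5 mice. The 5 G3 Tert-/- old values of Nudt19 (1723 to 2480) lie below every other library, and Hao2 is high in both old groups.

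In young kidneys no member passed the test of genotype. The count was 0 of 46 by limma and 0 by edgeR and by DESeq2 (background 0% by limma), and 7 members had an unadjusted p under 0.05 (10.7% of all tested genes), 5 higher and 2 lower in G3 Tert-/-. Of the 46 members 18 had a negative fold change (39.1%, against 49.8% of all tested genes), with a median of 0.08, and none had groups that did not overlap (1.4% of all tested genes did). Peroxins had a negative sign in 4 of 13 cases (median 0.20). Without the libraries that stood apart this was again 4 of 13 (median 0.11), with 2 peroxins of changed sign. Genes of beta-oxidation had a negative sign in 8 of 12 cases (median -0.05), or 5 of 12 (median 0.00) without those libraries. The smallest p-values were those of Ehhadh, Acox3 and Pex14. Ehhadh, a bifunctional enzyme of beta-oxidation that PPAR-alpha induces, was 197, 224, 169, 284 and 275 in G3 Tert-/- young, against 542, 283, 309, 264 and 289 in Tert+/+ young kidneys. Its highest value was in Tert+/+ young replicate 1, and the log2 change of -0.52 with an SE of 0.19 was -0.34 without the libraries that stood apart. Acox3, an oxidase for branched-chain acyl-CoA, was 1546, 1303, 1306, 1252 and 1067 in G3 Tert-/- young, against 484, 997, 1018, 1148 and 1042 in Tert+/+ young kidneys. Its lowest value was in the same library, and a log2 change of 0.52 with an SE of 0.19 became 0.29 without the pair. Pex14, part of the docking complex of the import machinery, was 307, 353, 299, 529.8 and 189 in G3 Tert-/- young, against 145, 288, 189, 295 and 176 in Tert+/+ young kidneys, with overlapping groups and a log2 change of 0.60 with an SE of 0.23 (0.46 without the pair). The adjusted p by limma was 0.435 for each of these genes.

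With age in G3 Tert-/- mice, more members passed and nearly all were lower. In old G3 Tert-/- against young G3 Tert-/- kidneys 6 members fell (Nudt19, Eci2, Crot, Phyh, Pex14 and Pxmp4) and 1 rose (Hao2), against a background of 2.24% of all tested genes (1.31% fell and 0.93% rose). A negative fold change was found in 42 of 46 members (91.3%, against 49.5% of all tested genes), with a median of -0.25, against 0.00 over all tested genes. Unadjusted p-values were under 0.05 for 17 members (14.9% of all tested genes), and groups did not overlap for 10 (4.6% of all tested genes), 9 of them lower. Without the libraries that stood apart, neither of which is a G3 Tert-/- library but both of which enter the shared estimate of spread, 14 members passed (background 4.58%), among them the 7 named here. The added ones, all lower in old kidneys, were Acox2, Acox3, Agps, Amacr, Decr2, Ech1 and Ehhadh. In whole tissue, fewer cells of a type and less RNA per cell cannot be told apart. This comparison shares its old G3 Tert-/- libraries with the genotype comparison at 47 weeks, so the low Nudt19 values enter both.

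With age in Tert+/+ mice, Hao2 rose and Ehhadh fell, against a background of 0.649% of all tested genes (0.246% fell and 0.403% rose). Without the libraries that stood apart the same 2 members passed (background 0.897%). Of the 46 members 33 had a negative fold change (71.7%, against 49.3%), with a median of -0.09, and 9 had an unadjusted p under 0.05 (10.6% of all tested genes). Without the libraries that stood apart 29 members had a negative sign (median -0.07). Leaving out Tert+/+ old replicate 4 gave 25 (median -0.03), and leaving out Tert+/+ young replicate 5 gave 27 (median -0.03). For 8 members the sign itself depended on the pair: without it the log2 change was 0.19 for Far1, 0.13 for Pex2, 0.10 for Hacl1, 0.09 for Amacr, 0.04 for Nudt12, 0.03 for Idh1, -0.02 for Ephx2 and -0.06 for Pex11a. For a further 23 members the log2 change kept its sign and moved by over 1.5 times. Groups did not overlap for 4 members (2.53% of all tested genes), Ehhadh, Ech1, Crat and Nudt19, each lower in old kidneys. The age effect was not shown to differ between genotypes for any member: the interaction called 0 of 46 by limma, by edgeR and by DESeq2 (background 0.00684% by limma), with 7 members at an unadjusted p under 0.05 (6.22% of all tested genes). All 7 had a more negative age difference in G3 Tert-/- than in Tert+/+ kidneys, as had 34 of 46 members (73.9%, against 50% of all tested genes). Averaged over genotypes, age called 7 members (background 4.49%, with 2.43% that fell and 2.06% that rose): Hao2 rose, and Nudt19, Ehhadh, Eci2, Crot, Ech1 and Gnpat fell. A negative sign was found in 40 of 46 members (87%, against 49% of all tested genes). Without the libraries that stood apart this count was 10 (background 6.5%), with Agps, Phyh and Pxmp4 added.

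**Figure D3:**
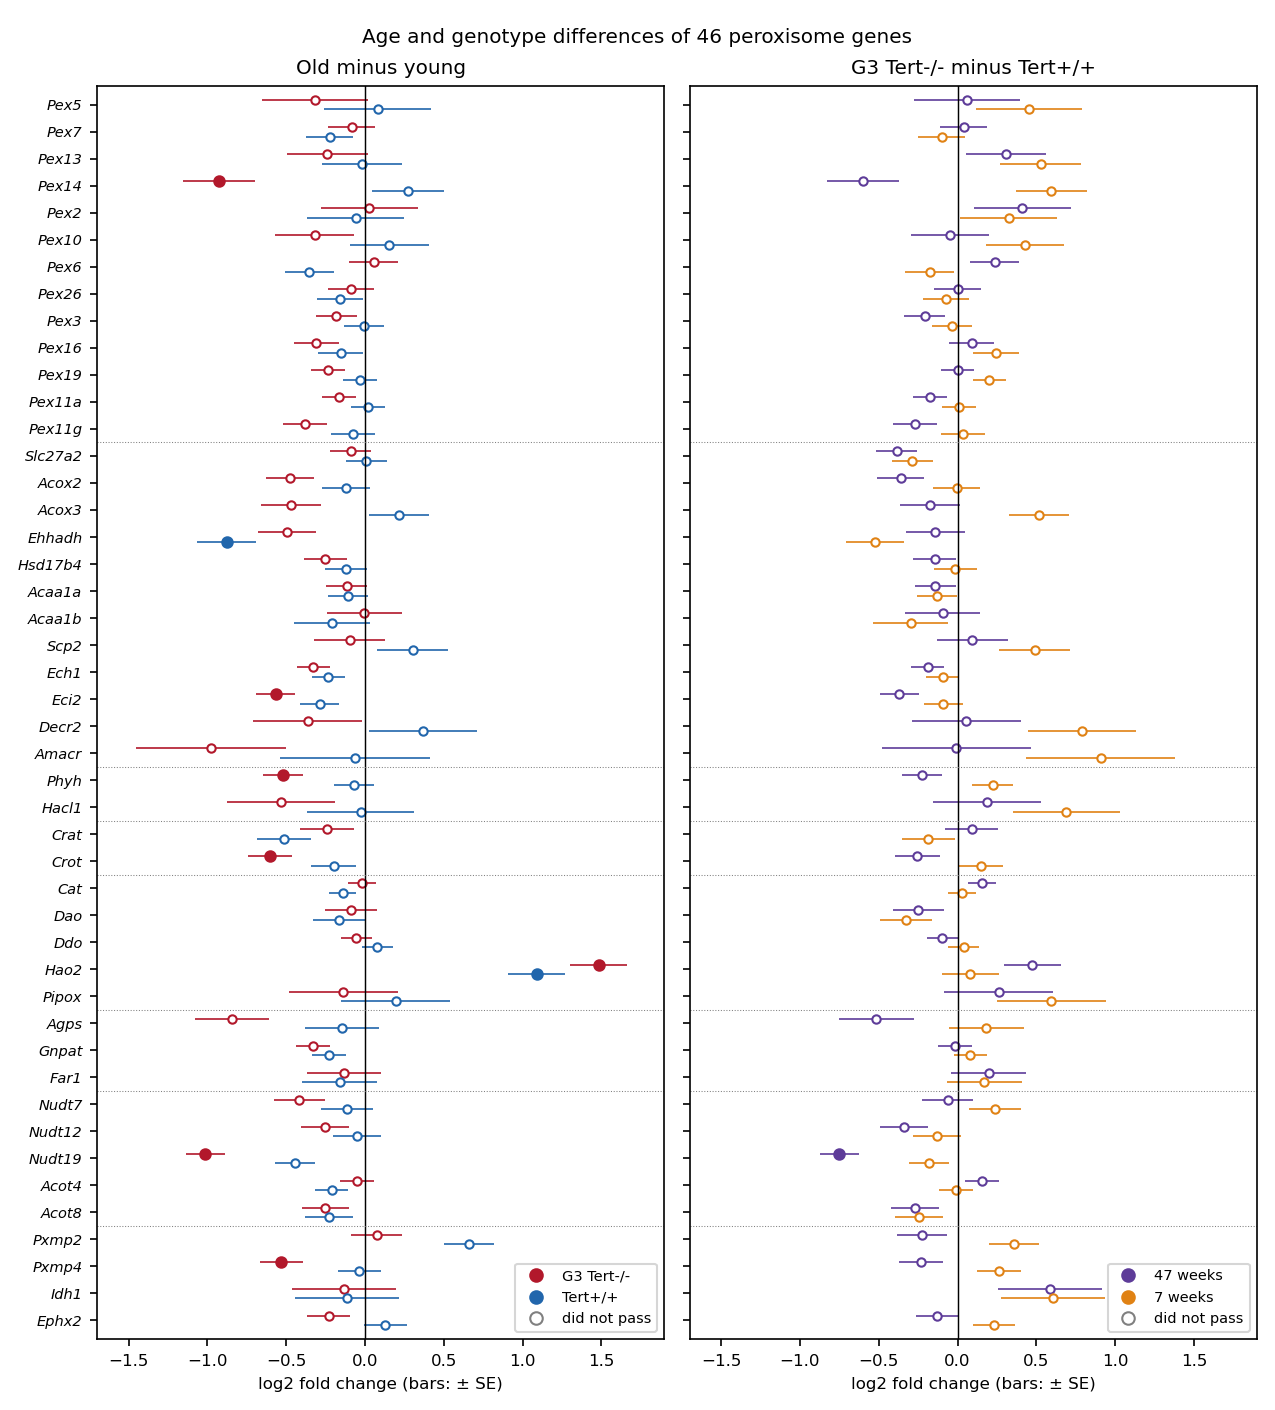
Log2 fold change of each member for age (left, G3 Tert-/- above Tert+/+) and genotype (right, 47 weeks above 7 weeks), with bars of ± SE. Dotted lines part the role groups, filled points passed an adjusted p of 0.05 and open points did not. Most age points of G3 Tert-/- lie left of 0, and Hao2 lies far right in both genotypes.

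Among the peroxins, 11 of 13 had a negative age difference in G3 Tert-/- (median -0.23) and 9 of 13 in Tert+/+ kidneys (median -0.03). Pex14 fell in old G3 Tert-/- kidneys. It was 252, 159, 160.0, 166 and 121 in G3 Tert-/- old, against the young G3 Tert-/- values given above, and 246, 225, 286, 273 and 245 in Tert+/+ old kidneys. One old value, that of replicate 1, lay within the young range, and the young group was spread widely, from 189 to 529.8. The means were 172 ± 48.5 in old and 335 ± 124 in young G3 Tert-/- kidneys (log2 change -0.93 with an SE of 0.23, adjusted p = 0.0303 by limma), and 255 ± 24.5 in old and 218 ± 68.7 in young Tert+/+ kidneys (log2 change 0.27 with an SE of 0.23, adjusted p = 0.712; SD, n = 5). Pex14 had the smallest interaction p of the members (log2 change -1.20 with an SE of 0.32, adjusted p = 0.716, 95% interval -1.86 to -0.53). Without the pair that stood apart its log2 change with age in Tert+/+ kidneys was 0.11 and its interaction was -1.04. The fall of Pex14 in G3 Tert-/- kidneys was lost when any of 7 G3 Tert-/- libraries was left out (adjusted p up to 0.104).

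The other peroxins did not pass for age in either genotype, and their log2 changes of old over young kidneys are given. The cargo receptors Pex5 and Pex7, which recognise the targeting signals of matrix enzymes, had -0.31 and -0.09 in G3 Tert-/- and 0.08 and -0.22 in Tert+/+ kidneys. The docking partner Pex13 had -0.24 in G3 Tert-/- and -0.02 in Tert+/+, and the ubiquitin ligase subunits Pex2 and Pex10 had 0.03 and -0.32 in G3 Tert-/- and -0.06 and 0.15 in Tert+/+. Pex6, an ATPase that recycles the receptor, had 0.06 in G3 Tert-/- and -0.35 in Tert+/+, and its membrane anchor Pex26 had -0.09 in G3 Tert-/- and -0.16 in Tert+/+. For the proteins that insert membrane proteins, the values in G3 Tert-/- were -0.18 for Pex3, -0.31 for Pex16 and -0.23 for Pex19. Old G3 Tert-/- Pex19 values (275 to 315) lay below young ones (331 to 380.3) without overlap. Pex11a and Pex11g, which act in elongation and division, had -0.17 and -0.38 in G3 Tert-/-, and 0.02 and -0.08 in Tert+/+ kidneys.

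The genes of beta-oxidation were lower with age in old G3 Tert-/- kidneys in 12 of 12 cases by sign (median -0.35), of which Eci2 passed, and in 8 of 12 in Tert+/+ kidneys (median -0.11, or 7 of 12 and -0.04 without the libraries that stood apart), of which Ehhadh passed. Eci2 (chromosome 13, 34977748 to 35027096) was 423, 383, 459, 336 and 449 in G3 Tert-/- old, against 627, 544, 587, 733 and 543 in G3 Tert-/- young kidneys. Every old value lay below every young value (1.48-fold lower, log2 change -0.57 with an SE of 0.12, adjusted p = 0.0143 by limma). In Tert+/+ kidneys it was 588, 569, 495, 535 and 457 at 47 weeks and 835, 607, 695, 589 and 529 at 7 weeks, which overlapped (log2 change -0.29 with an SE of 0.12, adjusted p = 0.393). Averaged over genotypes Eci2 had a log2 change of -0.43 with an SE of 0.09, adjusted p = 0.00504 by limma, and its fall in G3 Tert-/- was lost without G3 Tert-/- old replicate 4 (adjusted p = 0.0554).

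Ehhadh (chromosome 16, 21761287 to 21787807) was 183, 166, 169, 229 and 144 in Tert+/+ old kidneys, against the Tert+/+ young values given above, whose lowest was 264. The groups did not overlap, and the means were 178 ± 31.6 in old and 337 ± 116 in young kidneys (1.84-fold lower, log2 change -0.88 with an SE of 0.19, adjusted p = 0.0249 by limma). The call holds without the libraries that stood apart (-0.79, adjusted p = 0.0124), but not without Tert+/+ old replicate 1, 2, 3 or 5 (adjusted p 0.0516 to 0.0923) or when the 2 Tert+/+ groups were fitted alone (adjusted p = 0.0983). In G3 Tert-/- it was 174, 123, 178, 142 and 193 at 47 weeks, with a log2 change against 7 weeks of -0.49 with an SE of 0.19 (adjusted p = 0.192, and 0.0449 without the pair that stood apart). On the log2 scale the interaction for Ehhadh was 0.38 with an SE of 0.26, and its adjusted p was 0.831.

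Ech1, a dienoyl-CoA isomerase, did not overlap between ages in either genotype. It was 1113, 1315, 1264, 1139.7 and 1376 in G3 Tert-/- old and 1459.7, 1723, 1730.3, 1473 and 1408 in G3 Tert-/- young kidneys, and 1497, 1404, 1459.5, 1405 and 1301 in Tert+/+ old and 2167, 1559.5, 1516, 1626 and 1507 in Tert+/+ young kidneys. All old values lay below the young values of their own genotype, with log2 changes of -0.33 with an SE of 0.10 in G3 Tert-/- (adjusted p = 0.11) and -0.23 with an SE of 0.10 in Tert+/+ (adjusted p = 0.411, and -0.13 without the pair that stood apart), and in the fit of all libraries only the average over genotypes passed (-0.28 with an SE of 0.07, adjusted p = 0.0281 by limma). The oxidases Acox2 and Acox3 had log2 changes of -0.48 and -0.47 in G3 Tert-/-, and -0.12 and 0.22 in Tert+/+ kidneys (-0.01 and 0.11 without the pair). Decr2, a reductase for unsaturated intermediates, was 598 to 709.8 in old and 742 to 959 in young G3 Tert-/- kidneys without overlap (log2 change -0.36 with an SE of 0.34, adjusted p = 0.686). Its SE came from a spread that included values of 261 and 137 in the old and young libraries that stood apart, and without them its adjusted p was 0.0449. For Amacr the adjusted p was 0.337 with the pair and 0.0196 without it with a log2 change of -0.98 in both fits.

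Slc27a2, Hsd17b4 (the second bifunctional enzyme), the thiolases Acaa1a and Acaa1b, and Scp2 (a thiolase and sterol carrier) had log2 changes with age of -0.09, -0.25, -0.12, -0.00 and -0.10 in G3 Tert-/- kidneys, and none passed. Acaa1a and Acaa1b are near-identical copies, so their split of reads is uncertain. The reads of Scp2, Hacl1, Pex6 and Acot4 are uncertain too, since each overlaps another annotated gene on its own strand at the 3′ end.

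Both alpha-oxidation genes and both carnitine transferases were lower by sign with age in each genotype, except that Hacl1 had the opposite sign in Tert+/+ kidneys without the libraries that stood apart. Phyh (chromosome 2, 4919019 to 4938730), which hydroxylates phytanoyl-CoA as the first step of alpha-oxidation, was 2318, 2179.7, 2004, 1666 and 1822 in G3 Tert-/- old, against 2963, 3213, 2851, 2528 and 2711 in G3 Tert-/- young kidneys. It did not overlap and fell 1.43-fold (log2 change -0.52 with an SE of 0.13, adjusted p = 0.03 by limma). In Tert+/+ kidneys it was 2497, 2533, 2017, 2020.3 and 2623 at 47 weeks and 1793, 2424, 2426, 2706 and 3021 at 7 weeks, with a log2 change of -0.07 with an SE of 0.13. Crot (chromosome 5, 8966033 to 8997324), which passes medium-chain products of beta-oxidation to carnitine for export, was 695, 702, 943, 634 and 763 in G3 Tert-/- old and 1218, 957, 1139, 1112 and 1221 in G3 Tert-/- young kidneys. The highest old value, 943, lay just below the lowest young value, 957 (1.52-fold lower, log2 change -0.60 with an SE of 0.14, adjusted p = 0.0243 by limma). In Tert+/+ kidneys Crot was 744, 1002, 948, 985 and 780.0 at 47 weeks and 1061, 1164, 1285, 987 and 688 at 7 weeks, and these overlapped (log2 change -0.20 with an SE of 0.14, adjusted p = 0.662). Leaving out 1 library ended the call for age in G3 Tert-/- for Phyh in 6 cases (adjusted p up to 0.102) and for Crot in 5 (up to 0.082). Crat, which does the same for acetyl groups, was 241 to 324 in Tert+/+ old and 335 to 590.5 in Tert+/+ young kidneys without overlap, and did not pass (log2 change -0.51 with an SE of 0.17, adjusted p = 0.219 by limma). Hacl1, the lyase that follows Phyh, had log2 changes of -0.53 in G3 Tert-/- and -0.03 in Tert+/+ kidneys at 10 to 69 reads per library, so its precision is limited by depth.

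Of the oxidases, Hao2 rose with age in both genotypes while the others and catalase did not pass. Hao2 (chromosome 3, 98874521 to 98893239) oxidises L-2-hydroxy acids and is expressed in kidney. It was 1343, 1581, 1057, 1051 and 1171 in G3 Tert-/- old, against 331, 471, 474, 482 and 453 in G3 Tert-/- young kidneys. No values overlapped (2.79-fold higher, log2 change 1.48 with an SE of 0.18, adjusted p = 1.8e-05 by limma). In Tert+/+ it was 949, 1077, 1009.7, 514 and 1006 in old, against 556, 346, 453, 348 and 401 in young kidneys. There the old value of 514, in replicate 4, lay within the young range, and the others lay above it (2.13-fold higher, log2 change 1.09 with an SE of 0.18, adjusted p = 0.00189). Without the pair that stood apart the log2 change in Tert+/+ kidneys was 1.39 (adjusted p = 2.37e-06). The interaction for Hao2 was 0.39 with an SE of 0.25 (adjusted p = 0.826 by limma) with all libraries, and 0.09 (adjusted p = 0.91) without the pair. Hao2 passed for age in both genotypes whichever library was left out.

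Catalase (Cat), which removes hydrogen peroxide, varied little: it was 2959.9 ± 214 in G3 Tert-/- old, 2659 ± 184 in Tert+/+ old, 3000.1 ± 275 in G3 Tert-/- young and 2934 ± 192 in Tert+/+ young kidneys (SD, n = 5 each). Its log2 changes with age were -0.02 with an SE of 0.09 in G3 Tert-/-, with a 95% interval of -0.20 to 0.16, and -0.14 with an SE of 0.09 in Tert+/+, with -0.32 to 0.04. Dao and Ddo, oxidases for D-amino acids, had log2 changes of -0.09 and -0.05 in G3 Tert-/- and -0.16 and 0.08 in Tert+/+ kidneys. Pipox, which oxidises pipecolate and sarcosine, had -0.14 in G3 Tert-/- and 0.20 in Tert+/+, with a low value of 330.0 in Tert+/+ old replicate 4 and a log2 change of 0.42 without the pair.

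**Figure D4:**
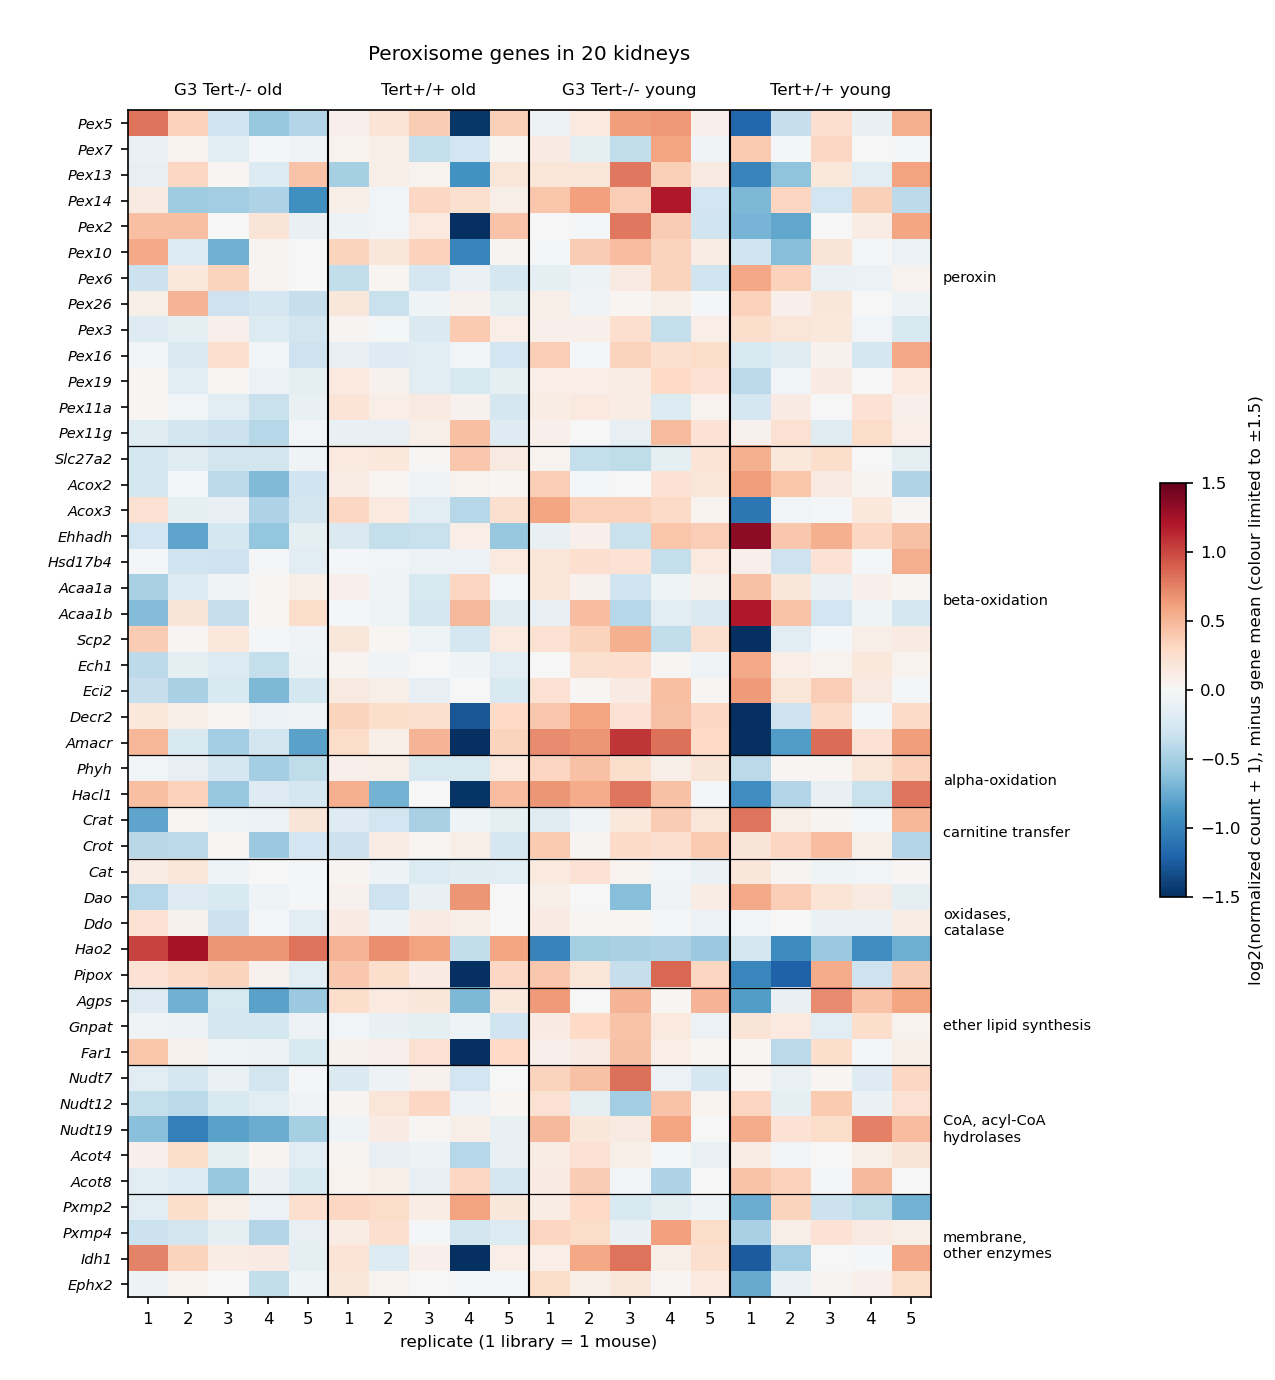
Log2(normalized count + 1) of the 46 members in 20 libraries, each row centred on its mean, with colour limited to ±1.5 and rows grouped by role. Hao2 is red in both old groups, Nudt19 is blue in G3 Tert-/- old kidneys, and Tert+/+ old replicate 4 and Tert+/+ young replicate 1 stand out as dark columns.

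The genes of ether lipid synthesis were lower by sign with age in 3 of 3 cases in each genotype, and none passed within a genotype. In Tert+/+ kidneys the count was 2 of 3 without the libraries that stood apart, where Far1 had the opposite sign. Gnpat, the acyltransferase of the first step, was 284, 280.4, 248, 246 and 279 in G3 Tert-/- old and 322, 363, 399, 327 and 278 in G3 Tert-/- young kidneys. In Tert+/+ it was 287, 275, 268, 283 and 240.4 in old and 339, 328, 264, 356 and 306 in young kidneys. Old and young values overlapped in both genotypes, and the average over genotypes had a log2 change of -0.28 with an SE of 0.08, adjusted p = 0.0341 by limma, a call that ended in 9 of 20 fits that left out 1 library. Agps, which makes the ether bond, was 318 to 486 in old and 558 to 867 in young G3 Tert-/- kidneys without overlap (log2 change -0.84 with an SE of 0.24, adjusted p = 0.0626 by limma). It passed by edgeR and by DESeq2, and by limma without the pair that stood apart (adjusted p = 0.00175). Far1, which supplies the fatty alcohol, had log2 changes of -0.13 in G3 Tert-/- and -0.16 in Tert+/+ kidneys.

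All 5 nudix hydrolases and acyl-CoA thioesterases were lower by sign with age in each genotype (4 of 5 in Tert+/+ kidneys without the libraries that stood apart, where Nudt12 had the opposite sign), and Nudt19 fell in G3 Tert-/- kidneys. With the values given above, its old G3 Tert-/- kidneys (1723 to 2480) all lay below its young G3 Tert-/- kidneys (3490 to 5258), 2.02-fold lower (log2 change -1.01 with an SE of 0.13, adjusted p = 2.77e-05 by limma). In Tert+/+ kidneys the old values (3244 to 3810) also lay below the young ones (4070 to 5911), with a log2 change of -0.44 with an SE of 0.13 and an adjusted p of 0.128 by limma, and it passed by DESeq2 but not by limma or edgeR. The interaction was -0.57 with an SE of 0.18 on the log2 scale, with a 95% interval of -0.94 to -0.20, an unadjusted p of 0.00402 and an adjusted p of 0.743. Both the age test in G3 Tert-/- and the interaction use the old G3 Tert-/- values whose low level was known beforehand. By mean, the groups ran from lowest to highest as old G3 Tert-/-, old Tert+/+, young G3 Tert-/- and young Tert+/+. The lowest group did not overlap its neighbour, and each later pair of neighbours in that order did. Nudt7, another coenzyme A hydrolase, had log2 changes with age of -0.42 in G3 Tert-/- and -0.11 in Tert+/+. Nudt12, which hydrolyses NADH, had -0.25 in G3 Tert-/- and -0.05 in Tert+/+, and the thioesterases Acot4 and Acot8 had -0.05 and -0.25 in G3 Tert-/- and -0.21 and -0.23 in Tert+/+ kidneys.

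Of the membrane proteins and other enzymes, Pxmp4 fell with age in G3 Tert-/- kidneys. Pxmp4 (chromosome 2, 154585758 to 154603708) encodes a peroxisomal membrane protein. It was 799, 829.9, 915, 737 and 921 in G3 Tert-/- old, against 1249, 1208, 925, 1538 and 1208 in G3 Tert-/- young kidneys. Old and young values did not overlap, by the narrow margin of 921 against 925 (log2 change -0.53 with an SE of 0.14, adjusted p = 0.0435 by limma), and 14 of 20 fits that left out 1 library ended the call. Tert+/+ values were 1078, 1195, 992, 828 and 868 in old and 716, 1064, 1161, 1103 and 1062 in young kidneys (log2 change -0.03 with an SE of 0.14). Pxmp2, a channel for small solutes, had the opposite sign in Tert+/+ kidneys, with 1075, 1050.2, 933, 1314 and 976 in old and 517, 1087, 693, 665 and 528 in young ones. They overlapped through Tert+/+ young replicate 2, and the test was narrowly missed (log2 change 0.66 with an SE of 0.16, adjusted p = 0.0577 by limma), while DESeq2 called it. The pair of libraries that stood apart held the lowest young and the highest old value. Without them the log2 change was 0.49 (adjusted p = 0.192 by limma). In G3 Tert-/- Pxmp2 was 768, 1039, 919, 812 and 1034 in old and 934, 1063, 740.3, 782 and 827 in young kidneys (log2 change 0.07 with an SE of 0.16), and its interaction was -0.59 with an SE of 0.23, adjusted p = 0.774 by limma. Without the pair the interaction was -0.41 (adjusted p = 0.606 by limma). Idh1, an isocitrate dehydrogenase that makes NADPH, and Ephx2, an epoxide hydrolase, had log2 changes of -0.13 and -0.23 in G3 Tert-/- and -0.11 and 0.13 in Tert+/+ kidneys.

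Genotype averaged over both ages called 0 of 46 members by limma (background 0.0273%) and 0 by edgeR, with 10 at an unadjusted p under 0.05 (11.1% of all tested genes), while DESeq2 called Nudt19. The smallest p-values were those of Nudt19 (log2 change -0.47 with an SE of 0.09, adjusted p = 0.0799 by limma), Slc27a2 (-0.34 with an SE of 0.09, adjusted p = 0.227) and Eci2 (-0.23 with an SE of 0.09, adjusted p = 0.401). Without the libraries that stood apart these log2 changes were -0.44, -0.26 and -0.18. Slc27a2 was 8913, 6658, 6578, 7783 and 9885 in G3 Tert-/- young and 12389, 9518, 10286, 8596 and 7771 in Tert+/+ young kidneys, which overlapped.

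Peroxisomal genes outside the 46 also passed with age in G3 Tert-/- mice and not in Tert+/+ mice, with 0 called by the interaction in limma and 4 at an unadjusted p under 0.05 there (6.22% of all tested genes). Of 42 such genes 35 were tested, of which 6 fell and 1 rose in G3 Tert-/- (median of 35 genes -0.13) and 0 changed in Tert+/+ kidneys by limma (median -0.04, 4 at an unadjusted p under 0.05). Over all tested genes 2.24% passed with age in G3 Tert-/- (1.31% fell and 0.93% rose). In Tert+/+ kidneys 0.649% passed, and 10.6% had an unadjusted p under 0.05. Abcd3, which carries acyl-CoA into the organelle, was 1940.0 ± 132 in old and 2478 ± 165 in young G3 Tert-/- kidneys (log2 change -0.35 with an SE of 0.09, adjusted p = 0.0471), with a log2 change of -0.30 in Tert+/+. Also among those that fell were the thioesterase Acot12 (-0.69), the peroxiredoxin Prdx5 (-0.40), the membrane protein Mpv17l (-0.64) and the fission adaptor Mff (-0.43). Pex5l, a relative of the Pex5 receptor best known from neurons, rose (1.66) at low counts, 14.0 ± 4.34 in old and 3.73 ± 1.32 in young G3 Tert-/- kidneys. In Tert+/+ kidneys it did not pass, but it was also higher in old ones, at 15.8 ± 2.40 against 6.36 ± 2.27 in young ones. Those Tert+/+ groups did not overlap (12.4 to 18.7 in old and 3.86 to 9.84 in young kidneys). All young values in both genotypes lay below the filter value of 10. At 47 weeks 0 of the 35 differed by genotype by limma (background 0.0957%), with 9 at an unadjusted p under 0.05 (6.58% of all tested genes).

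Targets of PPAR-alpha outside the members, many of them enzymes of fatty acid oxidation in mitochondria, were lower with age in 21 of 21 tested cases by sign in G3 Tert-/- (median log2 change -0.52) and in 19 of 21 in Tert+/+ kidneys (median -0.19). Of all tested genes 49.5% and 49.3% were lower. In G3 Tert-/- kidneys 6 fell (1.31% of all tested genes fell): Cpt2 (-0.52), Acadm (-0.53) and Acadl (-0.47) of mitochondrial oxidation, the lipase inhibitor Angptl4 (-1.16), the thioesterase Acot1 (-0.66) and the fatty aldehyde dehydrogenase Aldh3a2 (-0.66). Acadm, for example, was 3334 ± 485 in old and 4839 ± 828 in young G3 Tert-/- kidneys. In Tert+/+ kidneys 1 fell (0.246% of all tested genes fell), the omega-hydroxylase Cyp4a14 (-2.25 with an SE of 0.47, adjusted p = 0.0238 by limma), at 80.8 ± 58.4 in old and 374 ± 185 in young kidneys. Acadm had a log2 change of -0.40 and Angptl4 had -0.67 in Tert+/+ kidneys, and neither passed. The interaction called 0 of the 21 by limma, with 2 at an unadjusted p under 0.05 (6.22% of all tested genes), so these differences between genotypes were not shown. The receptor Ppara itself had log2 changes of 0.34 (adjusted p = 0.46 by limma) in G3 Tert-/- and -0.01 in Tert+/+ kidneys. None of 12 regulators tested, among them Rxra, Ppargc1a and Hnf4a, passed for age in either genotype by limma. Unadjusted p-values were under 0.05 for 4 of them in G3 Tert-/- (14.9% of all tested genes) and for 0 in Tert+/+ kidneys (10.6%).

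**Figure D5:**
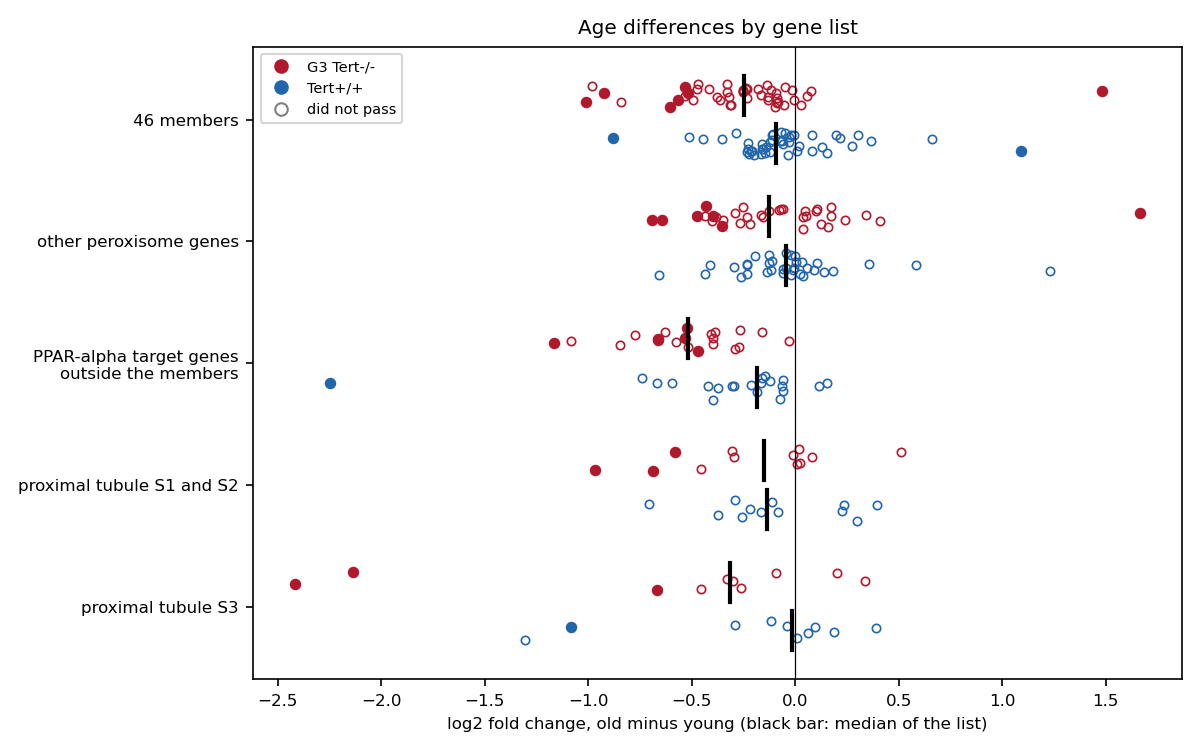
Log2 fold change of old minus young for the 46 members and for lists of other genes, in G3 Tert-/- (red, upper row of each list) and Tert+/+ (blue, lower row). Points are genes, filled where they passed, and the black bar is the list's median, which is -0.52 in G3 Tert-/- and -0.19 in Tert+/+ kidneys for PPAR-alpha targets.

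Markers of the proximal tubule moved in part with these results. Over all tested genes, 2.24% passed with age in G3 Tert-/-, 0.649% with age in Tert+/+ kidneys and 0.0957% by genotype at 47 weeks. Of 12 markers of the tubule's early segments (S1 and S2), 3 fell with age in G3 Tert-/- (Slc5a2, Slc22a6 and Slc6a19, median of the list -0.15) and 0 in Tert+/+ kidneys (median -0.14, 4 at an unadjusted p under 0.05 by limma, against 10.6% of all tested genes). Their summed level was 54477 to 64712 in G3 Tert-/- old, 54247 to 67461 in Tert+/+ old, 60668 to 76027 in G3 Tert-/- young and 65114 to 78847 in Tert+/+ young kidneys. Of 10 markers of the late segment (S3), which include the member Slc27a2, 3 fell with age in G3 Tert-/- (Slc22a7, Atp11a and Acsm3, median -0.32) and 1 in Tert+/+ (Acsm3, median -0.02), and Acsm3 also fell by genotype at 47 weeks. Some genes of the S3 list were picked from earlier results of these libraries, so their falls are no independent support. Acsm3 is also on the list of male-biased genes given next. The defining S3 marker Slc7a13 was 5015 to 7105 in G3 Tert-/- old, 5042 to 7445 in Tert+/+ old, 4049 to 5315 in G3 Tert-/- young and 4097 to 6596 in Tert+/+ young kidneys. By genotype at 47 weeks all 12 male-biased kidney genes listed, some of them picked from earlier results of these libraries, were lower in G3 Tert-/- by sign, and 4 fell (Slco1a1, Acsm3, Hsd17b11 and Acsm2). With age in G3 Tert-/- kidneys 6 of these 12 fell. Of 8 fibroblast and mesenchymal markers 2 fell with age in each genotype (Col1a1 and Col3a1). Of 6 plasma cell markers 3 rose with age in Tert+/+ kidneys (Igkc, Igha and Jchain) and 0 passed in G3 Tert-/- kidneys. There all 6 were higher by sign (median 1.63), 5 at an unadjusted p under 0.05 by limma (14.9% of all tested genes). Of 11 hepatocyte markers tested, 2 rose (Apob and Serpina1a) and 1 fell (Ttr) with age in G3 Tert-/- kidneys, with summed levels of 3311 to 4649 in G3 Tert-/- old, 4088 to 5234 in Tert+/+ old, 3813 to 4936 in G3 Tert-/- young and 3212 to 5562 in Tert+/+ young kidneys. Of 10 distal tubule and collecting duct markers Slc12a3 rose with age in both genotypes, and Calb1 fell in G3 Tert-/- kidneys. Single libraries also differed: Alb was 462 in Tert+/+ old replicate 4 and at most 89.8 elsewhere, and Adipoq was 0 to 789 over all libraries. The 1 adrenal cortex marker found had a highest value of 460 in Tert+/+ young kidneys (median 8.86) and at most 20.8 in the other groups. The part of these markers in the results on peroxisomal genes was not tested.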

How the data were processed

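The deposited signal is a normalized read count per gene, which the authors made with 1 size factor per library: in all libraries 100% of values were whole multiples of 1 step (tolerance 1e-06), so whole reads could be recovered. Per the labels' protocols, libraries were QuantSeq 3′ libraries stranded in the sense direction. Tools named in the submitters' processing notes, whose roles are not given, were HTSeq 0.6.1, DESeq2, TopHat2 2.0.10, FastQC 0.11.7, SAMtools 0.1.19 and Bowtie 1.0.0, and the build named was GRCm38. A count of 3 reads, the limit that 0 allows, is 2.49 to 3.38 normalized counts, for counting error only.

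Genes at 10 or more in at least 5 libraries were kept, and limma 3.58.1 (R 4.3.3) was run on log2(normalized count + 1) in 1 model of 4 group means over 20 libraries with a trend of spread on level. The 7 contrasts were genotype at each age, age in each genotype, their interaction and both averages. Tests were two-sided. Exact permutation tests used SciPy 1.17.1 (Python 3.11.15). The fit was tested on simulated data. Alternatives were pseudocounts of 0.5 and 4, other filters, TMM, edgeR 4.0.16 and DESeq2 1.42.0 on recovered reads, fits of the compared groups alone, and fits without 1 library or without both that stood apart. Groups came from the labels. Replicates were numbered in listing order.

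The members, lists and tests were chosen with earlier results of these data known, including the fall of Nudt19. The marker lists of S3 and male-biased genes hold genes picked from such results. Values in every library are printed for Nudt19 and, in each comparison, for up to 8 passing members with the smallest p, or 3 where none passes. Amacr was added after its values were seen. Others are given by role, and genes outside the members come from fixed lists. Coordinates are GENCODE M21 (GRCm38) and promoters RefSeq (GRCm38.p6). One result on a single gene outside the members is not reported here.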

Additional observations from a re-analysis of the deposited data

Results flagged for a closer look

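At its 95% critical value Dixon's test flags about 1 in 20 independent sets of normally distributed values. It was run on the members only, so no share of all tested genes is given. In 184 sets of 5 libraries (46 members in 4 groups), 21 had a highest or lowest library whose gap to the next exceeded that value. Of these, 8 were in Tert+/+ old replicate 4: Pex5 33.8 (others 99.5 to 124), Acaa1b 3025 (1794 to 2134), Decr2 261 (752 to 804), Amacr 42.8 (263 to 351), Hao2 514 (949 to 1077), Pipox 330.0 (1156 to 1403), Agps 347 (615 to 667) and Far1 163 (495 to 581). A further 5 were in Tert+/+ young replicate 1: Acox3 484 (997 to 1148), Ehhadh 542 (264 to 309), Scp2 293 (757 to 920), Ech1 2167 (1507 to 1626) and Pxmp4 716 (1062 to 1161). Acaa1b was the high one in the old library, and Ehhadh and Ech1 were the high ones in the young library. Both libraries also departed from their groups over all tested genes. There the SD of the log2 departure was 0.6645 in the old and 0.722 in the young library, and 0.3378 to 0.5443 in the others.

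The other 8 were spread over 5 libraries. G3 Tert-/- young replicate 3 had 90.4 for Pex13 (others 56.8 to 66.4), 1062 for Dao (1585 to 1781) and 644 for Far1 (484 to 517). G3 Tert-/- young replicate 4 had 738 for Pex11a (882 to 940) and 323 for Hsd17b4 (459 to 495). G3 Tert-/- young replicate 2 had 2969 for Acaa1b (1597 to 1979), G3 Tert-/- young replicate 1 had 331 for Hao2 (453 to 482), and Tert+/+ old replicate 5 had 459.6 for Hsd17b4 (391 to 406). No old G3 Tert-/- library was among them. Causes were not tested.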

How the results depend on the processing

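At 47 weeks Nudt19 was the 1 member called under each setting that kept all libraries or left out both that stood apart, and leave-one-out counts were 0 to 1. At 7 weeks and for the interaction the count was 0 under every setting run. For age in G3 Tert-/- the count of 7 became 14 without both libraries that stood apart, and leave-one-out counts were 2 to 10 (2, Hao2 and Nudt19, without G3 Tert-/- old replicate 4). For age in Tert+/+ the 2 calls became 4 with DESeq2 (adding Nudt19 and Pxmp2) and 1 (Hao2) when the compared groups were fitted alone, and leave-one-out counts were 1 to 3. For the average genotype difference 0 became 1 (Nudt19) with DESeq2, with leave-one-out counts of 0 to 1. For the average age difference 7 members were called, and leave-one-out counts were 5 to 10. No member that passed a comparison changed direction in it under any setting run, but without both libraries that stood apart 8 members that had not passed changed sign for age in Tert+/+ and 8 for genotype at 47 weeks. Of 60 member counts under settings that left out no single library, 56 were within 1.5 times of the counts reported. Over all tested genes, counts for genotype at 47 weeks were 6 to 50 across settings, and those for age in Tert+/+ 53 to 211. TMM moved no median of all genes by over 0.1. No paired analysis was possible because the labels give no replicate numbers, and those used here follow listing order. Depth limits the rarest members: Hacl1 had 10 to 69 reads per library.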
